A study of Mus musculus with 2 samples.

Results

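Among the distal EP300 peaks of mouse fetal liver, 1720 of 12570 (13.7%, 95% Wilson interval 13.1 to 14.3) had no GATA match near their summit and are called GATA-less peaks here. They were taken from the authors' list of 17055 peaks derived from both libraries and named optimal, of which 17043 lay on assembled chromosomes. A distal peak had its summit more than 1 kb from every transcription start site (TSS) of GENCODE M21. A GATA match was AGATAA or AGATAG or TGATAA or TGATAG on either strand within 100 bp of the summit, and the 10850 distal peaks that had one are called distal GATA peaks. The rule used only sequence and position, on assembly mm10 (GRCm38). The name GATA-less refers to the GATA match of this rule alone. The letters GATA with other neighbouring bases stood in the summit windows of 914 of the 1720 (53.1%). A GATA match elsewhere in the deposited peak was found for 433 of the 1720 (25.2%).

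Chromatin of fetal liver from B6NCrl mouse embryos, 14.5 days old, was precipitated with an EP300 antibody in 2 ChIP-seq libraries, replicates 1 and 2. Male and female embryos were pooled, the livers came from several dissections and were pulverized, and no allele or treatment is named. Both libraries carry the same biosample label and form 1 group, so no test over samples was possible and their spread may be technical. Read totals are not in the files used here, so depth is unknown. Peak signals are the values the authors deposited and serve here only to rank peaks within a list. A rank in a replicate is the place by signal, among the 300000 peaks of that library, of its nearest summit within 100 bp. Intervals on shares cover counting error over peaks only.

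EP300 is a histone acetyltransferase and coactivator that recognises no DNA sequence by itself and is brought to enhancers by transcription factors. Red cells are formed mainly in the liver at this stage of mouse development, and GATA1, the zinc finger factor of erythroid cells, recognises the GATA match used in the rule. Other factors known at erythroid enhancers are NFE2, a basic leucine zipper protein that pairs with a small MAF protein, KLF1, which reads CACCC boxes, and TAL1, which reads E-boxes. PU.1 is an ETS factor of myeloid cells, RUNX1 acts in several blood lineages, and CTCF, a zinc finger protein, marks insulators and loop anchors.

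The sequences of 7 GATA-less peaks are shown because each carries one of the sites that the results turn on. All are plus-strand windows from 100 bp before to 100 bp after the summit, on mm10, with the matches named beside them in capitals. The first 3 hold the NFE2 site, which contains an AP-1 site. They lie in an intron of Fars2 (chr13:36203126-36203326), 9644 bp from a TSS of the heme oxygenase gene Hmox1 (chr8:75083877-75084077) and 1974 bp from a TSS of the ferritin heavy chain gene Fth1 (chr19:9978524-9978724).
Fars2 NFE2: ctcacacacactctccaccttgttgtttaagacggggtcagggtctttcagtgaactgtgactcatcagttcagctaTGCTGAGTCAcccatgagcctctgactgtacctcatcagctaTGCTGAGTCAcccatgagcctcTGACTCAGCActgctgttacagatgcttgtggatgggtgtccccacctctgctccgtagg
Hmox1 NFE2: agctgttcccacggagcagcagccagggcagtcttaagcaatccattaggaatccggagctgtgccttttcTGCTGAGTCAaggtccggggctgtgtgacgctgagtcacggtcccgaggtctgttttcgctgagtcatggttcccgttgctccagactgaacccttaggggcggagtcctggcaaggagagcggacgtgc
Fth1 NFE2: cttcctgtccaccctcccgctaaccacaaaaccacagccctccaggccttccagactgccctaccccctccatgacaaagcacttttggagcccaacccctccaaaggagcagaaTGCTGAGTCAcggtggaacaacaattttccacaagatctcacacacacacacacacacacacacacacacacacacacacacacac
The Fars2 window held 3 NFE2 matches. The Hmox1 window held 1, and 3 AP-1 matches in all. The next 3 are the strongest GATA-less peaks with a CTCF site (nearest gene Chd2, chr7:73618409-73618609), a KLF site (nearest gene Ap5s1, chr2:131213943-131214143) and a PU.1 site (in Akap13, chr7:75751245-75751445).
Chd2 CTCF: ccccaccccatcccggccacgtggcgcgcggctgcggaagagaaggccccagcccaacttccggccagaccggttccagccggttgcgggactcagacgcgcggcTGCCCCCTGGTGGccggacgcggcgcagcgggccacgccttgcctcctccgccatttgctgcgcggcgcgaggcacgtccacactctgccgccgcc
Ap5s1 KLF: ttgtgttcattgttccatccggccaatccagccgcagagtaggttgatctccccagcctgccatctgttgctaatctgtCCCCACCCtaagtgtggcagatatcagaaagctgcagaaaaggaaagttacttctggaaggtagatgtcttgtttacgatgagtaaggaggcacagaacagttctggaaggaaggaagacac
Akap13 PU.1: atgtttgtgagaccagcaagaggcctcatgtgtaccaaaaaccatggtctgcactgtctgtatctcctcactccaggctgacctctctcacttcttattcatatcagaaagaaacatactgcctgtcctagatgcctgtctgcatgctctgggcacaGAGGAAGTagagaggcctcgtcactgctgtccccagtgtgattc
The last window belongs to the second strongest GATA-less peak, nearest to Serbp1 (chr6:67161674-67161874). Here the capitals mark the 4 letters GATA, or TATC on the other strand, whose neighbouring bases kept them from counting as a GATA match.
Serbp1 GATA core: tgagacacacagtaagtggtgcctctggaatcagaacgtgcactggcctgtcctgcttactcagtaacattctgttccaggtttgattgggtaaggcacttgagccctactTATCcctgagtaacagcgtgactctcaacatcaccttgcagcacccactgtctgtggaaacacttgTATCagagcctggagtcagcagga

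GATA-less peaks held sites of several other factor families at their summits more often than beside them. Each of 38 sites, written as a consensus and searched on both strands, was counted in the 1720 summit windows and in 2392 windows of the same length centred 500 bp to either side, which were also required to lack a GATA match. A site was called when its share at the summit was at least 1.5 times that beside it, the 95% Newcombe interval of the difference excluded 0 and at least 1% of GATA-less peaks held it. Of the 38 sites, 9 (23.7%) were called, with intervals that were not adjusted over sites. They were the NFE2, CTCF, AP-1, PU.1, KLF, MYC E-box, GC box, ETS and RUNX sites.

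Basic leucine zipper sites were prominent. The NFE2 site, a consensus of 10 letters, was found at 93 summits (5.41%) against 0.334% of the windows beside them, a ratio of 16.2. Its share was 1.19% in distal GATA peaks and 1.54% in all optimal peaks on assembled chromosomes. The AP-1 site (TGACTCA or TGAGTCA), read by JUN, FOS, BACH and NFE2 proteins, was found at 191 summits (11.1%) against 4.01% beside them (ratio 2.77), in 5.87% of distal GATA peaks and in 5.91% of all optimal peaks. Every NFE2 match holds an AP-1 match. AP-1 sites in windows without an NFE2 match, a split made after the values were seen, stood in 98 summits (5.70%) against 3.68% of the windows beside them, a ratio of 1.55. The CRE (TGACGTCA) and CEBP (TTGCNNAA) sites of other leucine zipper factors were not called, at 0.349% against 0.251% and at 9.48% against 7.48%. Their shares of all optimal peaks were 0.552% and 8.06%.

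NFE2 sites also lay close to the point of highest signal. Their density was 820.8 sites per kb per 1000 peaks within 25 bp of the summits of GATA-less peaks and 17.4 between 500 and 600 bp. In distal GATA peaks the same densities were 128.3 and 12.9. With each library's own top peaks, the NFE2 ratio was 12 in replicate 1 and 21.2 in replicate 2.

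The CTCF site, a consensus of 13 letters, was found at 66 summits (3.84%) against 0.251% beside them, a ratio of 15.3. It was rare in distal GATA peaks (0.341%), and its share in all optimal peaks was 0.904%. The difference between GATA-less and distal GATA peaks was 3.5 percentage points (95% Newcombe interval 2.68 to 4.52). The ratio of summit to flank was 19.6 in replicate 1 and 19.1 in replicate 2. GATA-less peaks with the CTCF site had a median signal of 26.2, and 21 of the 66 (31.8%) held the letters GATA, against 53.1% of all GATA-less peaks.

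Sites for zinc finger factors of the KLF and SP families formed the most frequent called class. The KLF site (CCACACCC, CCACGCCC, CCCCACCC or CCCCGCCC) was found at 297 summits (17.3%) against 8.15% beside them, a ratio of 2.12, in 11.4% of distal GATA peaks and in 14.6% of all optimal peaks. The GC box (GGGCGGG), read by SP1 and SP3, was found at 95 summits (5.52%) against 2.84% beside them (ratio 1.94), in 2.61% of distal GATA peaks and in 7.07% of all optimal peaks. The last KLF form overlaps the GC box, and 67 GATA-less peaks held both sites. KLF matches in windows without a GC box kept the ratio of 2.12 (13.4% against 6.31%). GC boxes in windows without a KLF match stood at 1.63% against 1.00% (difference 0.625 points, interval −0.0717 to 1.41). Unlike NFE2 sites, KLF sites were spread across the window, at 1083.0 per kb per 1000 peaks within 25 bp of the summit and 918.6 at 76 to 100 bp.

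Among the ETS family, the PU.1 form (GAGGAAGT) was found at 55 summits (3.20%) against 1.25% beside them, a ratio of 2.55, and in 1.32% of distal GATA peaks and 1.53% of all optimal peaks. The wider ETS site (AGGAAGT or CGGAAGT), which every PU.1 match contains, was found at 10.3% of summits against 6.10% beside them (ratio 1.69), in 6.48% of distal GATA peaks and in 8.30% of all optimal peaks. Without the windows that hold the PU.1 form, the ETS ratio was 1.46. The ETS site was not called in the conservative list (ratio 1.47) or above the median signal of the optimal list (1.01). Above that median the PU.1, MYC E-box and RUNX sites were not called either, with intervals that included 0. The MYC E-box (CACGTG) stood at 4.65% against 2.26% (ratio 2.06), with 3.23% of distal GATA peaks and 3.99% of all optimal peaks. The RUNX site (TGTGGTT) stood at 8.90% against 5.85% (ratio 1.52), with 7.87% of distal GATA peaks and 6.90% of all optimal peaks. RUNX was the called site that was not called in the top peaks of either library alone, at ratios of 1.38 in replicate 1 and 1.48 in replicate 2; the other 8 were called in both.

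**Figure D1:**
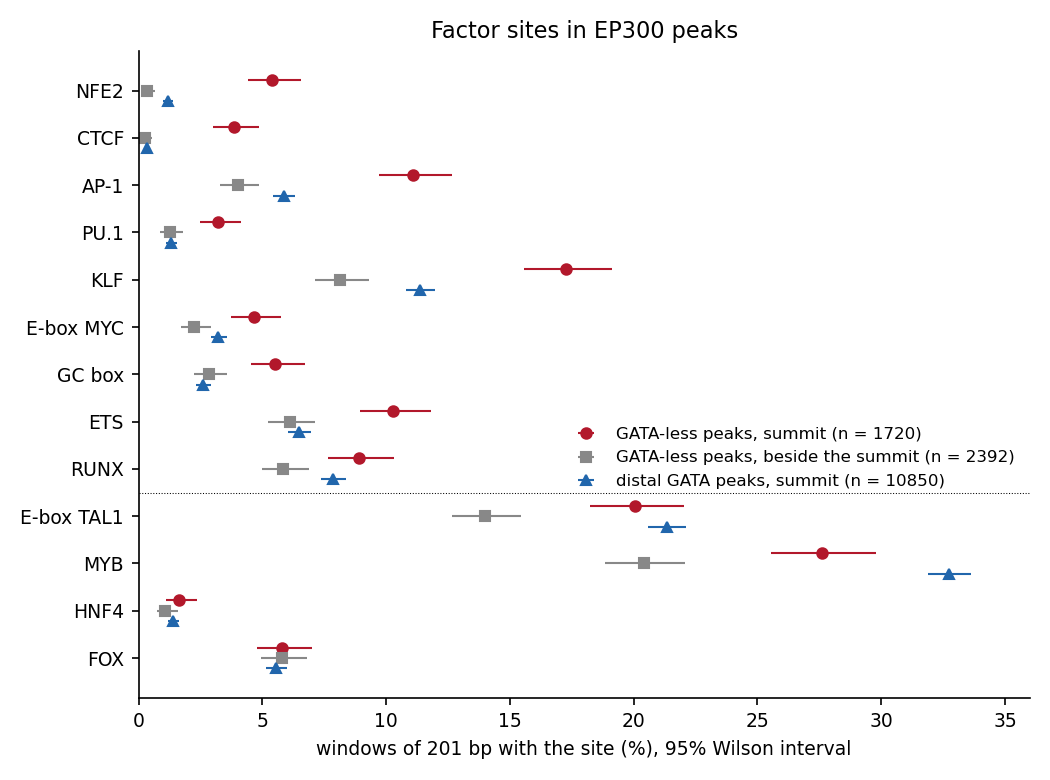
Share of summit-centred windows that hold each site, in percent with 95% Wilson intervals, at the summits of GATA-less peaks (circles), beside them (squares) and at the summits of distal GATA peaks (triangles). The 9 sites above the dotted line were called; for NFE2 the 3 shares are 5.41%, 0.334% and 1.19%.

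Erythroid E-box and MYB sites were above their flanks by less than the 1.5-fold threshold. The TAL1 E-box (CAGATG) was found at 20.1% of summits against 14.0% beside them, a ratio of 1.43, and in 21.3% of distal GATA peaks. The E-box CAGCTG had 14.8% against 10.5% (ratio 1.41, called in replicate 2 alone), and the MYB site (CAACGG or CAACTG or TAACGG or TAACTG) had 27.6% against 20.4% (ratio 1.35). These 3 sites stood in 18.7%, 14.9% and 30% of all optimal peaks. Sites of hepatocyte factors were not called. HNF4 sites (CAAAGGCCA, CAAAGGTCA, CAAAGTCCA or CAAAGTTCA) stood at 1.63% of summits and 1.09% of flanks, and FOX sites (TATTTAC or TGTTTAC) at 5.81% of both, with 1.37% and 5.14% of all optimal peaks. The HNF1 site, a consensus of 12 letters, was found at 0 of 1720 summits and in 0 of the windows beside them (interval of the difference −0.160 to 0.223 points). The other sites that were not called had ratios of 0.695 to 2.43, or no match beside the summits to form one.

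Set against distal GATA peaks, GATA-less peaks held 13 of the 38 sites (34.2%) more often and 1 (2.63%) less often, by the Newcombe interval of the difference. The more frequent sites were 8 of the 9 called above, all but RUNX, and the NRF1, E2F (TTTCGCGC or TTTGGCGC), IRF, NFKB and NFI sites, which between 2 and 42 GATA-less peaks held. The differences were 5.89 points for KLF (interval 4.08 to 7.84), 5.23 for AP-1 (3.76 to 6.86), 4.22 for NFE2 (3.22 to 5.4) and 3.81 for ETS (2.38 to 5.4). The AP-1 and NFE2 differences overlap, since every NFE2 match holds an AP-1 match. AP-1 sites in windows without an NFE2 match stood in 5.70% of GATA-less and 4.68% of distal GATA peaks. MYB was the site found less often, in 27.6% of GATA-less peaks and 32.7% of distal GATA peaks (difference −5.13 points, interval −7.38 to −2.80). GATA-less peaks were also richer in GC, with a median of 48.8% against 46.8% in distal GATA peaks. Of them, 18.8% had 6 or more CpG in the window, against 6.84%. The rule itself changes base composition, since it barred a word rich in A and T from GATA-less windows and required it in the others. How much of these differences follows from the rule was not tested. Within 5 strata of GC content the KLF difference was 4.0 points (2.13 to 5.86), the NFE2 difference 4.24 (3.15 to 5.33) and the CTCF difference 3.42 (2.5 to 4.34). The 8 sites shared with the comparison against flanks were more frequent within strata of GC content and within 5 strata of signal too, as MYB was less frequent in both. The rarer sites turned over. Within GC strata the NRF1, E2F, NFKB and NFI sites were not called, RUNX (1.52 points, 0.0896 to 2.95) and CEBP (1.73, 0.263 to 3.20) were more frequent and CAGCTG was less frequent (−3.09, −4.94 to −1.25). Within signal strata the E2F, IRF and NFI sites were not called.

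**Figure D2:**
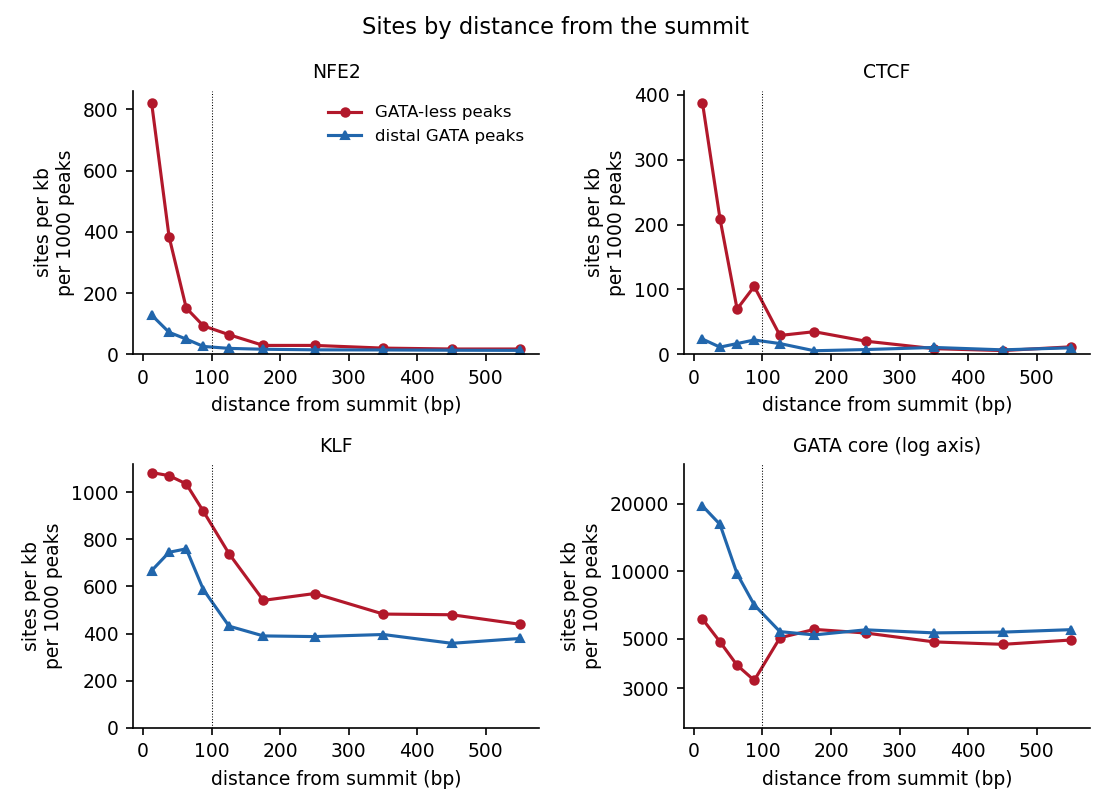
Density of NFE2, CTCF and KLF sites and of the letters GATA by distance from the summit, in sites per kb per 1000 peaks, for GATA-less peaks (circles) and distal GATA peaks (triangles); the GATA panel has a log axis. NFE2 density in GATA-less peaks is 820.8 in the nearest 25 bp and 17.4 beyond 500 bp, and the dotted line marks the 100 bp within which the rule allowed no GATA match.

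Many GATA-less peaks still held the letters GATA with other neighbouring bases. The 4 letters were found at 914 of the 1720 summits (53.1%) against 39.9% of the windows beside them, which lacked a GATA match too (difference 13.3 points, interval 10.2 to 16.3). Not all neighbouring bases behaved alike. CGATAA was found at 92 summits (5.35%) against 1.21% beside them, a ratio of 4.41. AGATAT stood at 15.7% against 7.69% (ratio 2.04), TGATAT at 11.2% against 5.81% (1.93) and TGATAC at 8.31% against 4.85% (1.71). In contrast, GGATAG stood at 5.76% against 5.60% (1.03).

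The letters GATA went with a stronger signal. They were found in 542 of the 860 stronger GATA-less peaks by signal (63.0%) and in 372 of the 860 weaker ones (43.3%), a difference of 19.8 points (interval 15.1 to 24.3). For CGATAA the shares were 8.02% and 2.67%, and for AGATAT 21.9% and 9.53%. Of the 12 strongest GATA-less peaks, 10 held the 4 letters, Nrf1 and Ube2v1 being the exceptions. Among the 8-letter words counted in the same windows were AGATTAGG, in 2.56% of summits against 0.376% beside them, and CAGATATG, in 2.56% against 0.418%. AGATTA, counted after these words were seen, was found at 270 summits (15.7%) against 7.07% of the windows beside them (ratio 2.22), and the Nrf1 window held it. Words with large differences also belonged to the sites above, CTGAGTCA of the AP-1 and NFE2 sites (6.28% against 1.71%) and CCACACCC of the KLF site (6.45% against 2.34%).

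In all, 795 GATA-less peaks held at least 1 of the 9 called sites and 925 (53.8%) held none. Neither a called site nor the letters GATA stood in 417 of them (24.2%). These 417 had a median signal of 17.0, against 23.1 for all GATA-less peaks, and 25.2% of them were found among the top peaks of both libraries, against 39.9%. GATA-less peaks with an NFE2 site had a median signal of 30.7, and 54 of the 93 (58.1%) were found in both. NFE2 sites stood in 7.91% of the stronger 860 and 2.91% of the weaker 860 (difference 5.00 points, interval 2.89 to 7.20). KLF sites stood in 21.2% of the stronger and 13.4% of the weaker ones (7.79 points, 4.23 to 11.3), and PU.1 sites in 3.14% and 3.26%.

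**Figure D3:**
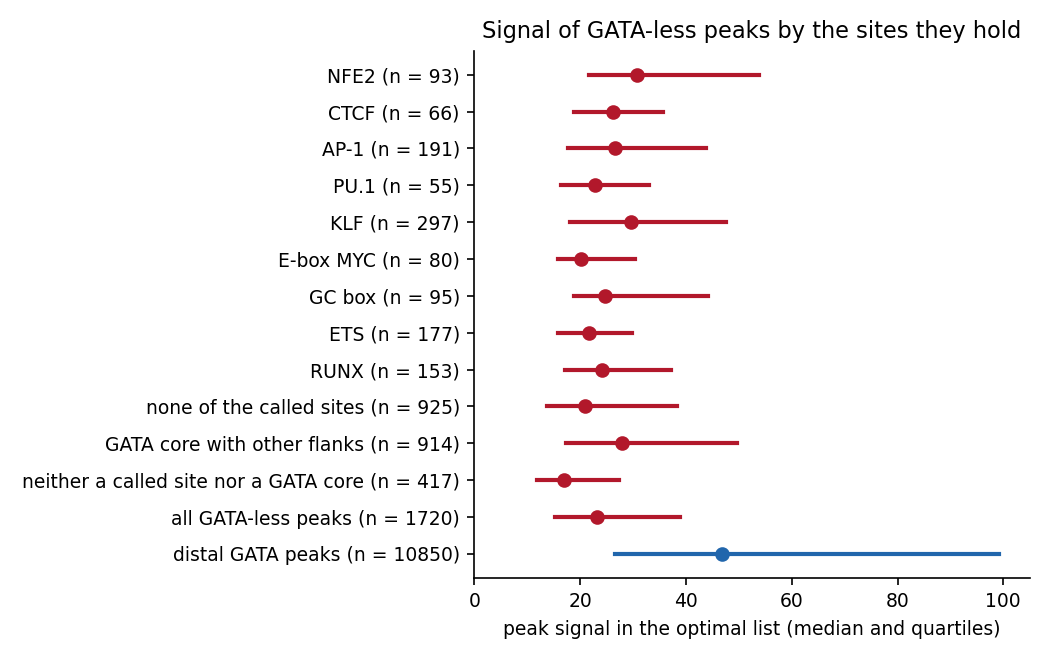
Signal of GATA-less peaks by the sites in their summit window, as the median (point) and quartiles (line), on the scale of the authors' optimal list; a peak can stand in several rows. Peaks with NFE2, KLF or the letters GATA have medians of 30.7, 29.6 and 27.9, peaks with none of these or the other called sites 17.0, and distal GATA peaks 46.8.

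GATA-less peaks were weaker than distal GATA peaks as a class, although some ranked among the strongest of the list. Their signal ran from 5.24 to 468.0 with a median of 23.1 (quartiles 15.3 and 38.9), against a median of 46.8 for distal GATA peaks (26.5 and 99.1). A signal above the median of the optimal list was found in 434 of 1720 GATA-less peaks (25.2%) and 6295 of 10850 distal GATA peaks (58.0%), a difference of −32.8 points (interval −35.0 to −30.5). They made up 41.4% of distal peaks in the weakest decile of signal and 3.26% in the strongest. Summits of each library's own top peaks lay within 100 bp of 39.9% of GATA-less and 74.9% of distal GATA peaks, a difference of −35.0 points. Within 5 strata of signal it was −3.88 points (−5.38 to −2.38). In bulk chromatin, a region bound in fewer cells cannot be told apart from one bound less in each cell.

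**Figure D4:**
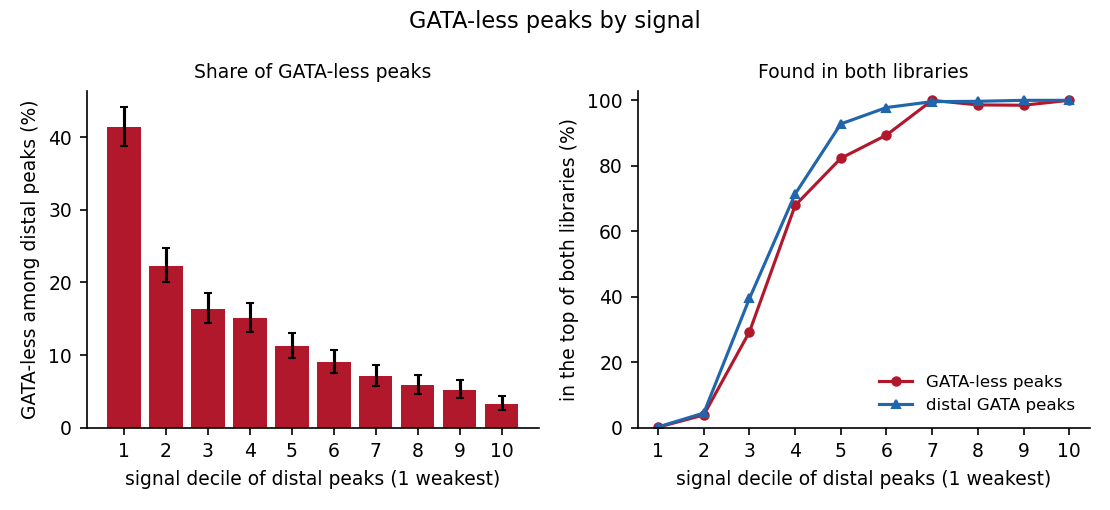
Left, share of distal peaks without a GATA match in each decile of signal over the 12570 distal peaks, with 95% Wilson intervals. Right, share of GATA-less (circles) and distal GATA peaks (triangles) found among the top peaks of both libraries by the same deciles; the left share falls to 3.26% in decile 10, against 41.4% in decile 1.

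The rule had 2 edges. For 349 GATA-less peaks (20.3%) the nearest whole GATA match lay just outside the window, between 100 and 150 bp away, and their median signal was 23.4. Just inside, 1104 distal GATA peaks had their nearest match at 51 to 100 bp, with a median signal of 26.3, while the 9746 with a match within 50 bp had 49.7. No match lay within 500 bp of 385 GATA-less peaks (22.4%), whose median signal was 26.5. At the TSS edge, 150 GATA-less peaks had a TSS between 1 and 1.5 kb away (median signal 21.5), and 258 peaks without a match, left out for a TSS between 500 and 1000 bp away, had a median of 21.4.

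Most GATA-less peaks lay in introns (947, 55.1%) or between genes (668, 38.8%), while 23 lay in coding exons and 82 in other exon sequence. Their median distance to a TSS was 6928.5 bp, against 8752.5 bp for distal GATA peaks, and 21.7% against 15.0% had a TSS within 2.5 kb (difference 6.67 points, 4.67 to 8.79). More than 50% of the summit window was repeat-masked in 147 GATA-less peaks (8.55%), against 4.47% of distal GATA peaks (difference 4.08 points, 2.78 to 5.54).

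Many GATA-less peaks stood next to other peaks. A distal GATA peak lay within 12500 bp of 1009 of them (58.7%), and another distal GATA peak lay within that distance of 52.7% of distal GATA peaks (difference 5.99 points, 3.47 to 8.48). This difference was 0.737 points without replicate 1 (−1.73 to 3.19) and 3.91 without replicate 2 (1.45 to 6.35). GATA-less peaks with a stronger summit within 500 bp numbered 270 (15.7%), against 2.96% of distal GATA peaks, and when all such peaks were left out the difference was 1.09 points (−1.65 to 3.83). Another GATA-less peak lay within 12500 bp of 26.2% of GATA-less peaks and of 14.3% of distal GATA peaks.

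The strongest GATA-less peak had a signal of 468.0 and lay in an intron of Hs6st1, a heparan sulfate sulfotransferase gene, 10276 bp from its TSS. It ranked 39 in replicate 1 and 29 in replicate 2, with signals of 233.8 and 238.5 in those lists. The second, of 455.3, had Serbp1, an mRNA-binding protein gene, as its nearest coding gene at 76402 bp and ranked 35 and 55. The third, of 420.1, lay 46698 bp from the arylamine acetyltransferase gene Nat3 and ranked 98 and 68. The fourth, of 407.0, lay in an intron of Nrf1, a regulator of mitochondrial genes, ranked 68 and 133 and had neither the letters GATA nor a called site. All 12 of the strongest ranked within the first 1000 peaks of replicate 1.

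The other 8 of the strongest 12 lay at genes of varied roles. Smox, of spermine oxidation, had an intronic peak of 357.0 that ranked 170 in replicate 1 and 330 in replicate 2. Ap5s1, of an adaptor complex, had an intergenic peak of 343.8 (ranks 188 and 403) with the KLF site printed above. Peaks followed at 1700014D04Rik (337.8), at the ubiquitin pathway genes Ube2v1 (336.0) and Mylip (316.7), 50856 bp from Cd24a, a surface glycoprotein gene of blood cells (313.2), at Usp32 (305.0) and at Cyth3 (303.3). Of the 12, 9 had a distal GATA peak within 12500 bp.

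Among 8 of the genes nearest to the most GATA-less peaks, Slc4a1 stood first. It encodes the anion exchanger band 3 of red cells and was the nearest gene of 12 GATA-less peaks and of 6 distal GATA peaks. The strongest of the 12, of 289.7, lay 9174 bp from the Slc4a1 TSS on chromosome 11 from 102375237 to 102375478 and ranked 637 in replicate 1 and 459 in replicate 2. The other 11 ran from 6.12 to 40.4, and 3 of the 12 lay in coding exons of the gene. A summit within 100 bp was missing from one library for 7 of the 12. Cd47, the surface signal that protects red cells from phagocytosis, had 8 GATA-less peaks of 5.75 to 60.7 and 14 distal GATA peaks. Pde4d, a cyclic AMP phosphodiesterase gene, and Usp7, a deubiquitinase gene, had 7 each, with 11 and 4 distal GATA peaks. Ccr1, Cd24a, Chd2 and Cpeb4, an RNA-binding protein gene, had 5 each, with 4, 15, 6 and 12 distal GATA peaks. Other genes tied with them at 5 and are not described. The strongest at Usp7, of 157.5, held an NFE2 site and ranked 1933 in replicate 1 and 1693 in replicate 2. All these counts are of listed peaks. Some listed peaks overlap each other, at Slc4a1, Cd47, Pde4d and Cpeb4, so the counts are not of separate regions.

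Of the 89 genes nearest to peaks with an NFE2 site, 3 were in the heme and iron list and 2 in the antioxidant list, against 9 and 6 of the 1301 genes nearest to any GATA-less peak; these counts were not tested. Among the genes described next, Hmox1, Fth1, Gclc and Bach1 come from these lists and those of erythroid and early response regulators. The Hmox1 peak printed above had a signal of 118.9 and ranked 2903 in replicate 1 and 2939 in replicate 2. Hmox1 encodes the enzyme that breaks down heme, and no distal GATA peak lay within 20 kb of its TSSs. The Fth1 peak, at the gene of the iron storage protein ferritin, had 131.8 and ranked 2188 and 2623. A peak at Gclc, of the first step of glutathione synthesis, had 55.6 and ranked 6954 and 6180. An intronic peak of Bach1, whose product is a repressor that senses heme and competes for such sites, had 79.9 and ranked 4214 and 4821. The strongest peak with the site, in Fars2, a mitochondrial tRNA synthetase gene, had 173.9 and ranked 1610 and 1651. Each of these 5 peaks was among the first 17055 of both libraries.

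The genes nearest to the strongest peaks of other called sites were without a shared role. The intergenic CTCF-site peak had Chd2, a chromatin remodeller gene, as its nearest coding gene at 76679 bp. It had 122.7 and differed between libraries, at rank 4177 in replicate 1 and 1855 in replicate 2. The AP-1 peak in an intron of Eaf1, of transcription elongation, had 248.0 and ranked 661 and 1020. The PU.1 peak in an exon of Akap13, an anchoring protein gene, lay 49348 bp from its TSS, had 155.0 and ranked 2397 and 1612. The RUNX peak in an intron of Trim58, a ubiquitin ligase gene that acts in the enucleation of erythroblasts, had 249.5 and ranked 992 and 660. Trim58 had no distal GATA peak within 20 kb.

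Of 21728 protein-coding genes, 1390 (6.40%) had a GATA-less peak within 20 kb of a TSS, and 5357 (24.7%) a distal GATA peak. Of the 1390 genes, 445 (2.05% of all genes) had a GATA-less peak and no distal GATA peak in that window. The red cell lists had larger shares than this background, as had others described after them. GATA-less peaks were found near 12 of 25 erythroid transcription factors (48.0%, 95% Wilson interval 30 to 66.5), 18 of 36 globin, membrane and receptor genes (50%, 34.5 to 65.5) and 9 of 21 heme and iron genes (42.9%, 24.5 to 63.5). Distal GATA peaks lay near 72.0%, 83.3% and 57.1% of these lists. All such shares are descriptions, since neighbouring genes can share a peak.

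Among the erythroid regulators, Gfi1b, a repressor of red cell and megakaryocyte development, had 3 GATA-less peaks, the strongest of 187.7 in its intron (ranks 1633 in replicate 1 and 1267 in replicate 2). Runx1 had 2, led by an intronic peak of 171.7 that itself held a RUNX site (ranks 1751 and 1652). Zfpm1, the GATA1 cofactor FOG1, had 2, against 16 distal GATA peaks. Klf1, the CACCC-box factor of erythroid cells, had 1 of 27.8 in its coding exon, with KLF and GC box sites (ranks 11024 and 14980), and 0 distal GATA peaks. Gata1 and Tal1 had none, against 3 and 1 distal GATA peaks. The Klf1 peak is also the 1 that the macrophage list has, through the neighbouring gene Dnase2a.

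Both globin loci had GATA-less peaks of modest signal. Within 20 kb of Hba-a1 there were 4, of 11 to 57.9, and 6 distal GATA peaks. One of them, of 23.4 and 3444 bp from the Hba-a2 TSS, held an NFE2 site and ranked 16359 in replicate 1 and 11574 in replicate 2. Within 20 kb of Hbb-bs there were 3, of 10.2 to 31.1, of which 2 lay wholly in repeat-masked sequence. The strongest of the list after Slc4a1 and Trim58 was the peak of 57.9 shared by the alpha-globin genes.

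In the heme and iron list, 4 of the 9 genes with a GATA-less peak (44.4%) had no distal GATA peak within 20 kb, against 32.0% of all 1390 genes with a GATA-less peak, 16.7% in the erythroid factor list and 11.1% in the globin and membrane list. Among the 4 were Hmox1, the ferritin light chain gene Ftl1 and the mitochondrial carrier gene Slc25a39. These genes were named after their values were seen. Of 22 antioxidant genes, 6 had a GATA-less peak (27.3%, 13.2 to 48.2), and 11 (50%) a distal GATA peak. Besides Hmox1 and Gclc these were Gpx4 (52.5), Cat (43.2), Gclm (25.5) and Prdx2 (20.6), and 2 of the 6 had a peak with an NFE2 site as their strongest. Of 28 cell cycle genes 6 had one (21.4%), led by Ccnd3, the cyclin D of erythroid precursors (80.6, with an AP-1 site), and Ccna2 (50.1). Of 30 AP-1 and early response genes 6 had one (20%), led by Bach1 and by Btg2 (55.9), an antiproliferative gene, while Jun and Fos had none.

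Shares of the hepatocyte secreted protein and enzyme lists were also above the 6.40% of all genes, with lower Wilson bounds of 11.7% and 8.61%. Such bounds also lay above 6.40% for the antioxidant (13.2%), cell cycle (10.2%), early response (9.51%) and autophagy (7.05%) lists. No difference between lists was tested. The list of hepatocyte transcription factors was not above that share, with a GATA-less peak near 1 of 24 genes (4.17%, 0.739 to 20.2). Hnf4a and Alb had no GATA-less peak within 20 kb. Of 36 secreted protein genes 8 had one (22.2%, 11.7 to 38.1), with signals of 14.2 to 24.5, all below 38.5, the median of the optimal list. The strongest was shared by Apoc1 and Apoe and ranked 13116 and 52308, and the weakest was in Afp and ranked 19220 and 132063. Fga and Fgb shared a peak of 20.4, and F10 and F7 one of 19.5. The Wilson interval counts each shared peak once per gene, as if independent. Of 33 enzyme and transporter genes 6 had one (18.2%), led by Hpd, of tyrosine breakdown (38.3), and Ass1, of the urea cycle (29.4).

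The lists of other cell types had Wilson intervals that included the 6.40% of all genes, so neither an excess nor a lack was shown. Of 20 genes of megakaryocytes and platelets, 3 had a GATA-less peak (15.0%), led by Vwf (47.9) and Itgb3 (19), as had 3 of 22 stem and progenitor genes (13.6%), led by Cbfa2t3 (65.1), a corepressor of the TAL1 complex, and Igf2bp3 (47.2). So had 2 of 24 liver endothelial genes, Egfl7 (28.3) and Eng (22.9), and 1 of 22 stellate and mesenchymal genes, Tagln (56.2, in a coding exon of Sidt2). Of 10 cholangiocyte genes 1 had one, Sox4 (5.35). None of 22 lymphoid, 21 granulocyte and mast cell, 26 neuronal and 20 epidermal genes had one, with upper Wilson bounds of 12.9% to 16.1%, although 14.3% to 22.7% of each list had a distal GATA peak. Spi1, which encodes PU.1, had none and 2 distal GATA peaks.

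Outside the cell type lists, 4 of 28 ribosomal protein genes had a GATA-less peak (14.3%), led by Rpl3 (30.2), and none of the 4 had a distal GATA peak within 20 kb. Of 15 autophagy genes 3 had one (20%), led by Map1lc3b (42.7) and Lamp2 (26.4). Of 18 coactivator genes 2 had one (11.1%), Crebbp (16.5) and Kat2b (14.0), and Ep300 itself had none, against 1 distal GATA peak. Of 18 muscle genes, Tnnt2 (16.6) was the only one.

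**Figure D5:**
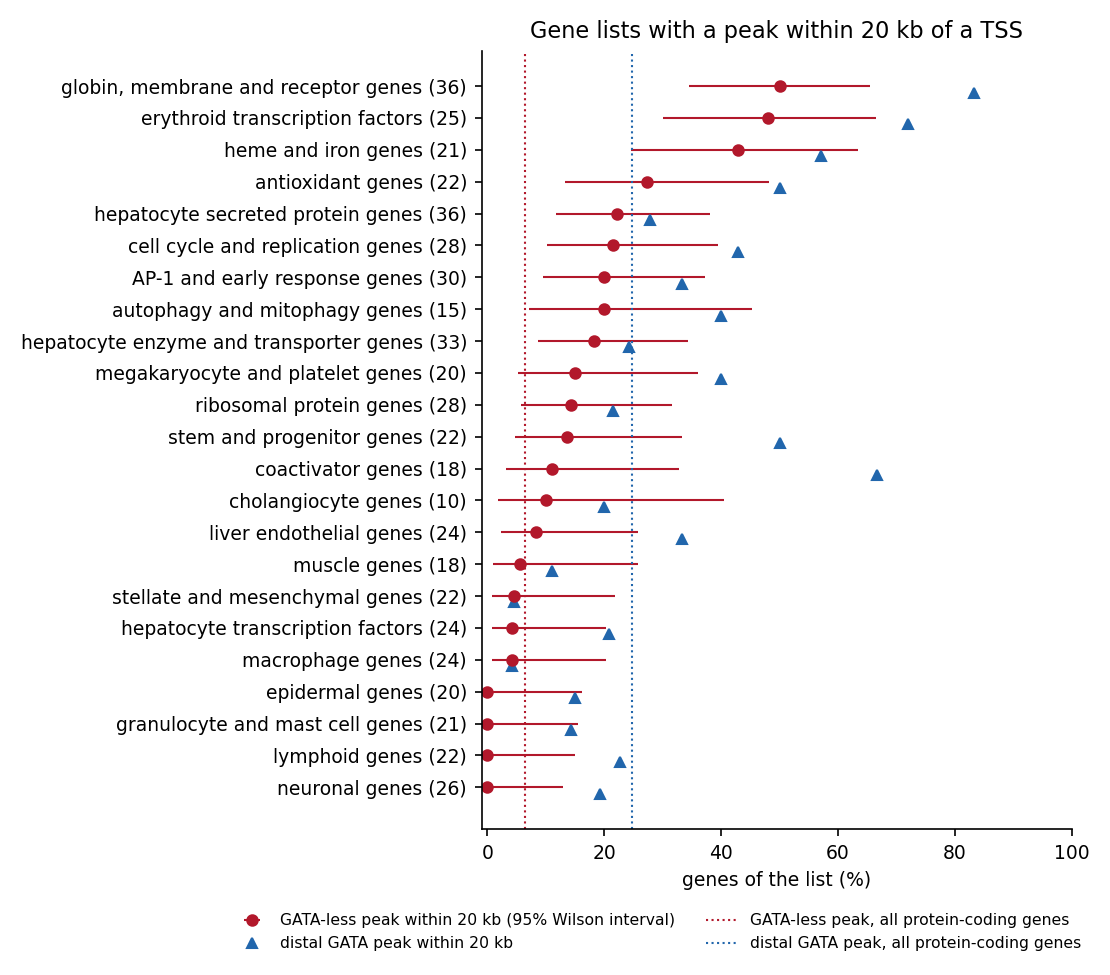
Percent of the genes of each list (number of genes in brackets) with a GATA-less peak within 20 kb of a TSS (circles, 95% Wilson intervals) and with a distal GATA peak there (triangles). Dotted lines mark the same shares over all protein-coding genes, 6.40% and 24.7%; the 3 red cell lists stand highest, at 42.9% to 50%.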

How the data were processed

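EP300 binding was measured by ChIP-seq in 2 libraries of 1 group. The authors deposited peak lists on mm10: 300000 peaks per library, and an optimal (17055) and a conservative (15728) list. The signal, as deposited by the authors, is a value per peak that is never negative, on each list's own scale. Which aligner, peak caller and threshold were used is not given in the sources used here, and without read totals depth is unknown.

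Coordinates were kept as deposited, counted from 1, and placed on the GRCm38 sequence from RefSeq and on GENCODE M21. Summit windows of 201 bp were searched for 38 consensus sites with Python 3.11.15 and pysam 0.24.0. Differences of shares have 95% Newcombe intervals over peaks. Each library's own list was represented by its first 17055 peaks by signal. On simulated windows the search called 8 of 8 planted sites, and 1 of 30 sites not planted. Those windows were random bases drawn with the same composition at summit and flank. The counts therefore give no error rate for the calls in the real windows.

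The GATA-less peaks, sites and gene lists were chosen with earlier results of these data known, so patterns seen before are not independent support. Of 541 listed genes, 2 were not in the annotation by the symbols used. Genes named are those nearest to the 12 strongest GATA-less peaks, to the most of them (8 genes) or to the strongest peak of each of the 5 called sites with the highest ratio, the 2 per list with the strongest peak within 20 kb, and 17 fixed regulators and markers; others were chosen after their values were seen. Sequences are the windows of the strongest peak with an NFE2, CTCF, KLF or PU.1 site outside chromosome 18; those at Hmox1, Fth1 and Serbp1 were added after their values were seen. Some genes and sequences that the rule names are not reported here.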

Additional observations from a re-analysis of the deposited data

How the results depend on the processing

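No paired analysis was possible because the libraries form 1 group. The share of GATA-less peaks among distal peaks, 13.7%, was 12.9% in the conservative list, 6.45% above the median signal, 15.0% to 15.3% in single libraries, 22.5% with GATA searched within 50 bp, 8.70% within 200 bp and 10.5% in the whole peak. It was 6.41% when GATA counted with any neighbouring bases, 12.7% at over 2.5 kb from a TSS, 14.4% with coding TSSs alone and 12.1% without peaks within 500 bp of a stronger one, an alternative chosen after seeing the data. Above the median signal, 5 sites in place of 9 were called against flanks (PU.1, the MYC E-box, ETS and RUNX were not) and 8 in place of 13 against distal GATA peaks, where fewer peaks were counted. Sites less frequent than in distal GATA peaks numbered 2 within GC strata, 1 to 2 in single libraries and 3 with any neighbouring bases, in place of 1. NFE2, CTCF, AP-1, KLF and the GC box were called in all 13 alternatives, with NFE2 ratios of 10.3 to 63.8, ETS in 11 (not in the conservative list either) and RUNX in 7. Genes with a GATA-less peak numbered 524 within 5 kb, 2597 within 50 kb, 395 above the median signal and 742 with any neighbouring bases, in place of 1390. The difference in proximity to distal GATA peaks was 0.737 to 3.91 points in single libraries and 1.09 without close peaks, in place of 5.99; the cause was not tested. No difference in strength, library overlap, proximity or repeat content, and no ratio of a called site, changed direction in the alternatives run. Some site differences from distal GATA peaks that were not called did. For the TAL1 E-box it was −1.27 points, and 0.473 within signal strata, and for CAGCTG −1.24 and 0.533. With 2 libraries of 1 biosample label and no depth, precision is that of peak counts.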
